A study of Rattus norvegicus with 5 samples.

Results

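Activity-dependent immediate early genes were examined in parietal cortex of hydrocephalic rats. The 39 genes are known early-response genes, chosen by name with earlier results of these data known. They comprise AP-1, Egr, Nr4a and other transcription factors, synaptic and secreted effectors, MAP kinase phosphatases, and growth-arrest genes. Of these, 38 had a probe, among 15172 genes on the array that carry an official rat symbol. They were read by 48 probes, and 37 genes had a probe bright enough to test. No probe was named Ier5, which is not analysed here. Npas4, a neuron-specific activity-induced transcription factor, was well above background on 1 of 5 arrays in the kaolin channel and on 1 of 5 in the saline channel, and was not tested.

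The kaolin group was rats injected with kaolin on postnatal day 1, and the control group was rats injected with saline on the same day. Both groups stayed with the dam, and parietal cortex RNA was taken on postnatal day 22, which is post-kaolin day 21; no label gives the strain. Kaolin is a clay whose injection obstructs the cerebrospinal fluid pathways, after which the ventricles widen (hydrocephalus). On each of 5 two-colour arrays, RNA of 1 kaolin sample (labelled with Cy3) was read against RNA of 1 saline sample (labelled with Cy5). The dyes were never exchanged, so dye and treatment cannot be told apart. The labels do not say whether a sample was a single animal, so p-values measure the spread between arrays, which may be technical in part.

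Immediate early genes are transcribed within minutes of a stimulus from regulators that are already in the cell, without new protein synthesis. In cortical neurons, calcium entry through glutamate receptors and voltage-gated channels activates MAP kinase and CaM kinase cascades, and these act on CREB at cAMP response elements (CRE) and on SRF at CArG boxes. The products either switch on later genes or act directly at synapses, and several of the same genes are also induced in glia and vessels by injury. Their RNAs are short-lived, so a tissue sample reports a brief window before collection.

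The arrays themselves were uneven. One slide held replicates 1 to 4, and a second one held replicate 5 alone. Over all tested probes, the ratios of replicate 2 correlated negatively with those of replicate 1 (r = -0.37) and with those of replicates 3, 4 and 5 (r = -0.17, -0.07 and -0.06); its direction was kept, since the labels state the dyes of every array. All 12 neuronal marker genes were well above background in every kaolin and every saline sample. No spot was saturated. With 5 arrays, the precision of all values is limited by their number.

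On all 5 arrays together, 0 of the 37 tested genes passed a Benjamini-Hochberg adjusted p of 0.05 in limma, as did 0% of all 12048 tested genes. The smallest adjusted p over all 29118 tested probes was 0.243, and 5280 probes (18.1%) had an unadjusted p under 0.05. Kaolin was the lower sample at an unadjusted p under 0.05 for 5 immediate early genes, namely Arc, Egr1, Klf4, Nr4a1 and Sik1 (13.5% of the 37, against a background of 6.6%). It was the higher one for 3, namely Atf3, Fosl1 and Jund (8.11%, against a background of 12.3%). None of the 37 genes had kaolin and saline signals that did not overlap, where 1.19% of all genes lay wholly lower in kaolin and 2.09% wholly higher. The mean log2 ratio of kaolin over saline lay below 0 for 24 of the 37 genes (64.9%), against 43.5% of all genes. Leaving out replicate 2 gave an adjusted p under 0.05 to 2 genes lower in kaolin, Klf4 and Sik1 (5.41%, against a background of 1.9%), and to 2 higher, Atf3 and Jund (5.41%, against 3.33%). Array weights, which count replicate 2 least, gave it to the same 4 genes, against backgrounds of 4.07% and 7.92%. The median of the 37 means was -0.10, against 0.03 over all genes. Centring each array on its median, in place of loess normalization, put 81.1% of the immediate early genes and 67.1% of all genes below 0, with medians of -0.26 and -0.09. In bulk tissue, fewer cells of a type and less RNA per cell cannot be told apart.

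**Figure D1:**
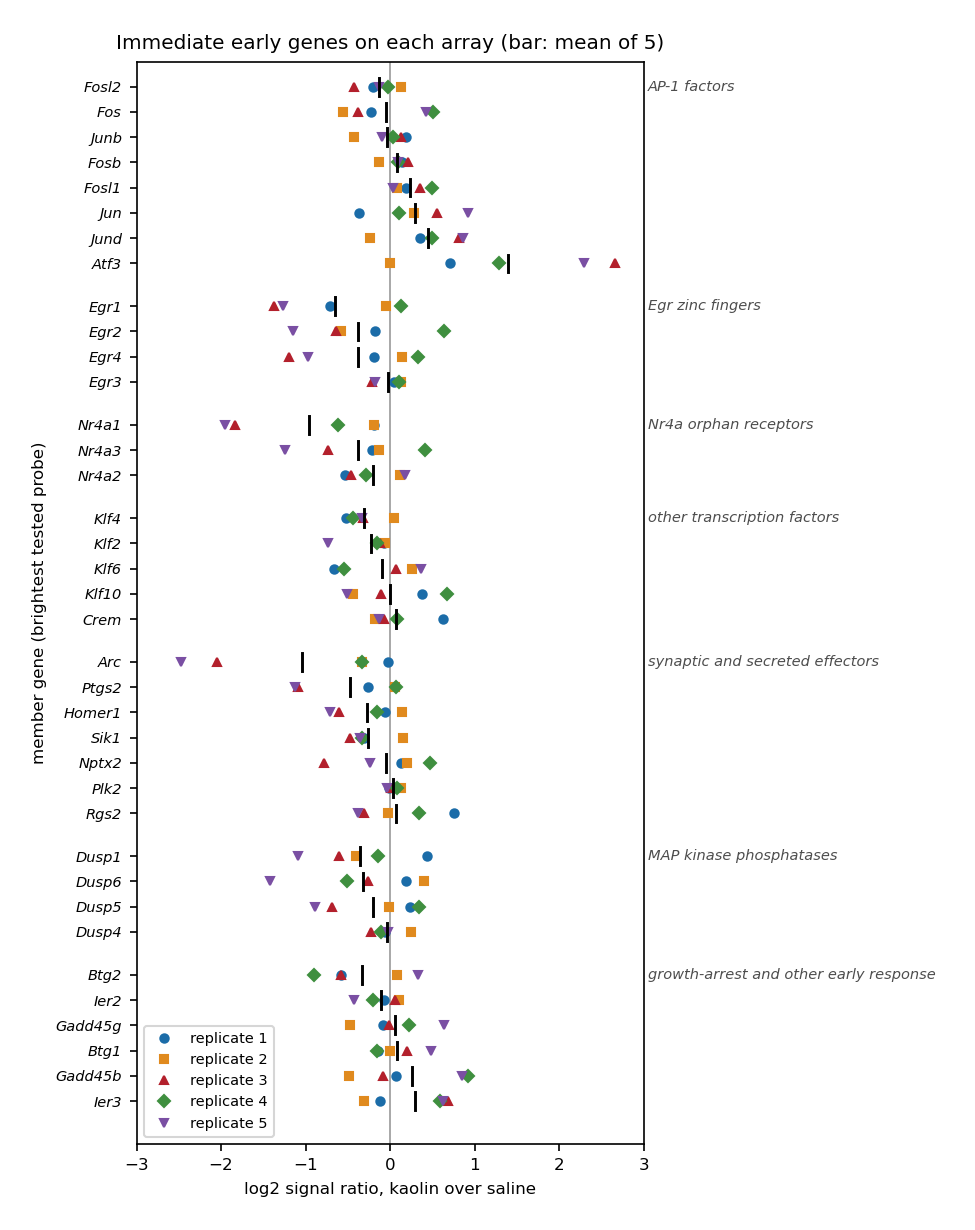
Log2 signal ratio of kaolin over saline (horizontal axis) for the brightest tested probe of each of 37 immediate early genes (rows, grouped by role), with 1 symbol per array and a black bar at the mean of 5. For Arc and Nr4a1 the points of replicates 3 and 5 lie far to the left of the others, and for Atf3 they lie farthest to the right.

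The upstream sequences of 6 genes are shown because they carry, or lack, the elements through which these genes answer calcium and growth-factor signals. They are the 250 bases before the annotated start of the 3 genes with the lowest means (Nr4a1, Egr1, Ptgs2) and the 3 with the highest (Jund, Gadd45b, Fosl1) among the 29 of 39 genes with an entry in RefSeq's table for build GRCr8. Arc and Atf3 are among the 10 genes with no entry. Each is written 5′ to 3′ on the gene's strand, with full CRE, CRE core and CArG box matches in capitals.
Nr4a1, chr7:134259888-134260137, plus strand: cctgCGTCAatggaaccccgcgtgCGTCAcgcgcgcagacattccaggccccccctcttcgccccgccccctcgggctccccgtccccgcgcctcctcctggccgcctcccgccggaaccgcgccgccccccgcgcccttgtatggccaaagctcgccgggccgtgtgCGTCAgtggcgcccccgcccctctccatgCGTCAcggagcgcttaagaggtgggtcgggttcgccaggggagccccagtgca
Egr1, chr18:26736828-26737077, plus strand: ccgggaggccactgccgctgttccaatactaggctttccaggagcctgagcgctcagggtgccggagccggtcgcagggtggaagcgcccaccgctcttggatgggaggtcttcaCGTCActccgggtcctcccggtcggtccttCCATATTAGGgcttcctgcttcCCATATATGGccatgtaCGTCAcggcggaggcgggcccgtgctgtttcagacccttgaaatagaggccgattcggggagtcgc
Ptgs2, chr13:64713813-64714062, plus strand: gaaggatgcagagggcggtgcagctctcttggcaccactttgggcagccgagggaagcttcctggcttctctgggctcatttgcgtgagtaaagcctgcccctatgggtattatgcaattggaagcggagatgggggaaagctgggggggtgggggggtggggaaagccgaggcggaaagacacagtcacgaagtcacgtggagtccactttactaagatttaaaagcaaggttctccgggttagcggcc
Jund, chr16:18769772-18770021, minus strand: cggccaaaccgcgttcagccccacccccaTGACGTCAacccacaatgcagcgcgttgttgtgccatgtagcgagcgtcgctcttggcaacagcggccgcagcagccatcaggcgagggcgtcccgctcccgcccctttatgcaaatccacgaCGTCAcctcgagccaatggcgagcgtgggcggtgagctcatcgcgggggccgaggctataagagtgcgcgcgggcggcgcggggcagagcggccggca
Gadd45b, chr7:9430719-9430968, minus strand: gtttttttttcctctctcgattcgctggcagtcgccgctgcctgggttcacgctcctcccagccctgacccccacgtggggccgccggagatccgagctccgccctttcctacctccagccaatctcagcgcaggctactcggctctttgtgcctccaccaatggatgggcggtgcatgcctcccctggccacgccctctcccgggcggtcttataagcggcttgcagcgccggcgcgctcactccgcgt
Fosl1, chr1:212183635-212183884, plus strand: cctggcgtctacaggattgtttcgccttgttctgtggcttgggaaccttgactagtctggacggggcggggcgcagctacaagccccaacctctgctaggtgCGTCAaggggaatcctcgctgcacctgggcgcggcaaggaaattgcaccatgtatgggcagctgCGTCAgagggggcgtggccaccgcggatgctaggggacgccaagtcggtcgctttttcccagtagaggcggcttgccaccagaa
The full CRE, TGACGTCA, was found upstream of Btg2, Dusp1, Ier2, Jund and Plk2, which is 5 of the 29 (17.2%), against 1.7% of all 27457 promoters of this length. The CRE core, TGACG or CGTCA on the shown strand, was found in 17 of 29 (58.6%), against 19% of all promoters; every full CRE also contains it. A CArG box lay upstream of Dusp5, Egr1, Egr2 and Klf6 (13.8%, against 1.5%), and TATAAA, read on both strands, upstream of 6 genes (20.7%, against 13.1%). The AP-1 site, TGANTCA, was in 0 of the 29, against 6.36% of all promoters. These matches describe the letters in this window only. Matches were not confined to one direction of ratio: the Nr4a1 and Egr1 windows above, whose genes had the lowest means, hold CRE cores, and so do those of Jund and Fosl1, whose genes lay above 0.

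**Figure D2:**
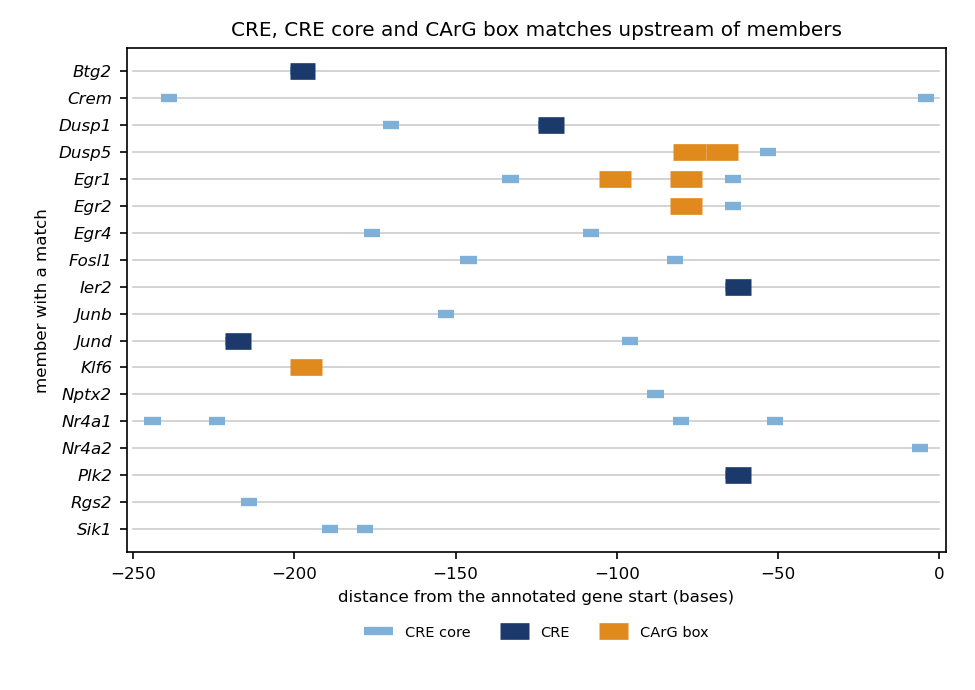
Positions of CRE, CRE core and CArG box matches (blocks) in the 250 bases before the annotated start of each immediate early gene with a match (rows); the horizontal axis is the distance from the start in bases. The 5 full CREs and the CArG boxes of Egr1, Egr2, Dusp5 and Klf6 are marked, and Nr4a1 holds 4 separate CRE cores.

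AP-1 transcription factors are dimers of Fos and Jun family proteins that bind the promoters of later genes. Of the 8 genes, 5 had means above 0, and their median on replicates 1 to 5 was 0.17, -0.07, 0.28, 0.30 and 0.26. Fos, the prototype of the class, had ratios of -0.22, -0.56, -0.38, 0.50 and 0.43 on replicates 1 to 5. Its kaolin samples spanned 9.38 to 10.90 on the log2 signal scale and its saline samples 9.94 to 10.47, so that the saline range lay inside the kaolin range. The mean ratio of Fos was -0.05 ± 0.48 (SD, n = 5), and its sign turned without replicate 2 (0.08) and without replicate 3 (0.04). Fosb and Junb, which replace Fos and Jun in AP-1 dimers, had mean ratios of 0.08 and -0.03. The mean of Junb turned to 0.06 without replicate 2. Fosl2 averaged -0.13 and Jun 0.30.

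Atf3, a stress-induced partner of Jun that is also known as a marker of injured neurons, had the highest mean of the 37. Its log2 signals were 7.75, 6.89, 9.62, 8.72 and 9.67 in the kaolin samples of replicates 1 to 5, against 7.05, 6.89, 6.96, 7.43 and 7.37 in the saline samples. The kaolin samples of replicates 3, 4 and 5 stood above every saline sample, that of replicate 1 did too by a smaller margin, and that of replicate 2 equalled its own saline partner and lay below all saline samples but its partner. The ratios were 0.71, -0.00, 2.66, 1.29 and 2.30, with a mean of 1.39 ± 1.10 (SD, n = 5), a 2.62-fold difference. In limma the unadjusted p was 0.00799 and the Benjamini-Hochberg adjusted p 0.243. Without replicate 2 the mean was 1.74 and the adjusted p 0.0459. Atf3 was the only immediate early gene with a mean of 0.5 or more above 0 (2.7%, against a background of 4.21%).

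Jund, which is less stimulus-dependent than Jun and Junb, was the brightest AP-1 probe and was read by 3 probes. The brightest had log2 signals of 14.11, 13.54, 14.59, 14.63 and 14.36 in the kaolin samples, against 13.76, 13.78, 13.78, 14.14 and 13.50 in the saline samples. Its kaolin signal was the higher of the pair on every array but replicate 2, though the ranges of the groups overlap. The mean ratio was 0.46 ± 0.44 (SD, n = 5; limma unadjusted p = 0.0262, Benjamini-Hochberg adjusted p = 0.246), and 0.63 without replicate 2 (limma adjusted p = 0.0431). With median centring it was 0.16. A second probe of Jund averaged 0.28, and the third, whose coordinates are listed in the opposite orientation, averaged -0.16 with ratios below 0 on all 5 arrays.

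Fosl1 (Fra-1), a Fos relative that lacks a strong transactivation domain, was the only one of the 37 genes above 0 on 5 of 5 arrays (2.7%, against a background of 7.95%). Its log2 signals were 6.53, 6.63, 6.78, 7.01 and 6.75 in the kaolin samples, against 6.33, 6.55, 6.43, 6.51 and 6.72 in the saline samples. The probe was dim: the lowest signals counted as well above background were 6.06 to 6.27 over arrays and channels. The groups overlap, because the saline signal of replicate 5 exceeds the kaolin signals of replicates 1 and 2. The mean ratio was 0.23 ± 0.19 (SD, n = 5; limma unadjusted p = 0.0335, Benjamini-Hochberg adjusted p = 0.253). The exact two-sided sign-flip permutation p was 0.0625, the smallest that 5 arrays can give.

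Egr zinc-finger factors bind GC-rich promoter sites, and Egr1 (Zif268) is the classical marker of recent cortical activity. All 4 had means below 0. Their median ratios on replicates 1 to 5 were -0.18, 0.04, -0.92, 0.23 and -1.06, so the low values sat on replicates 3 and 5. Egr1, read at chr18:27347173-27347232 of rat build rn4, had log2 signals of 13.23, 13.47, 12.30, 13.91 and 12.85 in the kaolin samples, against 13.95, 13.52, 13.67, 13.78 and 14.11 in the saline samples. Every kaolin sample but that of replicate 4 lay below all saline samples, that of replicate 2 only just, so the groups overlap through replicate 4. The ratios were -0.72, -0.05, -1.37, 0.13 and -1.26, with a mean of -0.65 ± 0.68 (SD, n = 5), a 1.57-fold difference. Limma gave an unadjusted p of 0.0297 and a Benjamini-Hochberg adjusted p of 0.248.

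Egr4, a regulator of neuronal genes, varied mainly in its kaolin samples. Its log2 signals were 13.36, 13.56, 12.32, 13.81 and 12.67 in the kaolin samples, against 13.56, 13.42, 13.52, 13.48 and 13.63 in the saline samples. The saline samples differ by 0.21 from lowest to highest and the kaolin samples by 1.49, with replicates 3 and 5 lowest. Its mean ratio was -0.38 ± 0.67 (SD, n = 5). A wider spread in kaolin was also seen for Egr1, whose kaolin samples spanned 1.61 and saline samples 0.59. It was not seen for Arc and Nr4a1, whose means lay lowest. The kaolin and saline samples spanned 2.51 and 2.40 for Arc, and 1.92 and 1.95 for Nr4a1. A kaolin range over 2 times the saline range was found for 12 of the 37 genes (32.4%), against 29.3% of all genes. Egr2 (Krox20), which is also the master regulator of myelination in Schwann cells, had ratios of -0.17, -0.58, -0.64, 0.63 and -1.15, with a mean of -0.38. Egr3, an Egr1 target in neurons, stayed between -0.22 and 0.14 on the 5 arrays. Its probe was dim, with log2 signals of 6.51 to 6.97 in kaolin and 6.58 to 6.84 in saline. The lowest signals counted as well above background were 6.06 to 6.27 over arrays and channels.

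The Nr4a genes encode orphan nuclear receptors that can act without a ligand. All 3 had means below 0, and their median ratio was -0.21, -0.14, -0.73, -0.28 and -1.25 on replicates 1 to 5. Nr4a1 (Nur77), which is induced by neuronal activity and in activated immune cells, was read at chr7:140020442-140020501 (rn4). Its log2 signals were 13.84, 12.43, 11.92, 13.71 and 12.62 in the kaolin samples, against 14.03, 12.62, 13.75, 14.32 and 14.57 in the saline samples. Kaolin was the lower of the pair on all 5 arrays, but the groups overlap: the kaolin signal of replicate 1 exceeds the saline signals of replicates 2 and 3. The ratios were -0.19, -0.19, -1.83, -0.61 and -1.95, with a mean of -0.96 ± 0.87 (SD, n = 5), a 1.94-fold difference. Limma gave an unadjusted p of 0.0158 and a Benjamini-Hochberg adjusted p of 0.243, and the exact sign-flip permutation p was 0.0625.

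Nr4a3 (Nor1) was read by 3 probes with means below 0. The brightest averaged -0.38 and the next -0.34, and both were lowest on replicates 5 and 3. The third did not follow them. Its log2 signals were 7.14, 6.82, 6.59, 6.83 and 7.86 in the kaolin samples, against 8.26, 6.60, 7.88, 8.15 and 7.72 in the saline samples. Kaolin was more than 1 log2 unit lower on replicates 1, 3 and 4 and slightly higher on replicates 2 and 5. The mean was -0.67 ± 0.79 (SD, n = 5; limma unadjusted p = 0.0434, Benjamini-Hochberg adjusted p = 0.265), and -0.96 with array weights (limma adjusted p = 0.0448). Nr4a2 (Nurr1), needed for midbrain dopamine neurons and also induced by activity in cortex, averaged -0.20 with ratios from -0.53 to 0.17.

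Among the other transcription factors, the Kruppel-like factors had small mean ratios. Klf4, which restrains axon growth and cell proliferation, had log2 signals of 9.46, 9.47, 9.28, 9.69 and 9.99 in the kaolin samples, against 9.98, 9.42, 9.60, 10.13 and 10.32 in the saline samples. The kaolin signal was the lower of the pair on every array but replicate 2, by a similar margin each time, and the group ranges overlap. The mean was -0.31 ± 0.22 (SD, n = 5; limma unadjusted p = 0.0138, Benjamini-Hochberg adjusted p = 0.243), and -0.40 without replicate 2 (limma adjusted p = 0.0458). Klf2, which vessels express under flow, was below 0 on all 5 arrays with a mean of -0.23, of which replicate 5 (-0.73) held most. With Arc and Nr4a1 it made 3 genes below 0 on every array (8.11%, against a background of 5.25%).

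Klf6, the brightest of this group, had log2 signals of 13.11, 13.45, 13.55, 13.25 and 13.97 in the kaolin samples, against 13.77, 13.18, 13.48, 13.80 and 13.59 in the saline samples. Kaolin was lower on replicates 1 and 4 and higher on the other arrays, and the groups overlap. Its mean was -0.10 ± 0.47 (SD, n = 5), its second probe averaged 0.14, and the mean over both was 0.02. Without replicate 1 the mean was 0.04 and without replicate 4 it was 0.01. Klf10, induced by TGF-beta, ran from -0.50 to 0.67, and Crem, whose short product ICER represses CRE-driven genes, from -0.18 to 0.63.

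Effectors that act at the synapse included the lowest mean of all. Arc, which travels to active synapses and removes AMPA receptors from their surface, was read at chr7:112772025-112772084 (rn4). Its log2 signals were 13.78, 11.54, 11.27, 13.54 and 11.80 in the kaolin samples, against 13.80, 11.87, 13.31, 13.87 and 14.27 in the saline samples. The kaolin samples of replicates 3 and 5 lay more than 2 log2 units below their partners, while the pairs of replicates 1, 2 and 4 lay close together. Both samples of replicate 2 were also low. The groups overlap, since the kaolin signals of replicates 1 and 4 exceed the saline signals of replicates 2 and 3. The ratios were -0.02, -0.33, -2.04, -0.33 and -2.47, with a mean of -1.04 ± 1.13 (SD, n = 5), a 2.05-fold difference. Limma gave an unadjusted p of 0.0316 and a Benjamini-Hochberg adjusted p of 0.250, and the exact sign-flip permutation p was 0.0625. Arc, Egr1 and Nr4a1 were the 3 genes with a mean of 0.5 or more below 0 (8.11%, against a background of 1.21%). Within the slide that held replicates 1 to 4, the mean of Arc was -0.68, that of Nr4a1 -0.71 and that of Egr1 -0.50, with Atf3 at 1.16.

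Homer1 encodes a postsynaptic scaffold of metabotropic glutamate receptors, with long constitutive forms and a short form induced by activity. The files do not state which form each of its 2 probes reads. The probe designed to the RefSeq messenger record averaged -0.27, with ratios of -0.06, 0.15, -0.60, -0.15 and -0.71. The other, described in the files as GLGF-domain Homer, had log2 signals of 11.48, 11.34, 9.46, 11.82 and 9.54 in the kaolin samples, against 11.24, 11.35, 11.62, 11.52 and 11.53 in the saline samples. The kaolin samples of replicates 3 and 5 lay far below every other sample, and the other kaolin samples lay among the saline samples or just above them. The ratios were 0.24, -0.01, -2.17, 0.30 and -1.98, with a mean of -0.72 ± 1.24 (SD, n = 5). Limma gave a Benjamini-Hochberg adjusted p of 0.375.

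**Figure D3:**
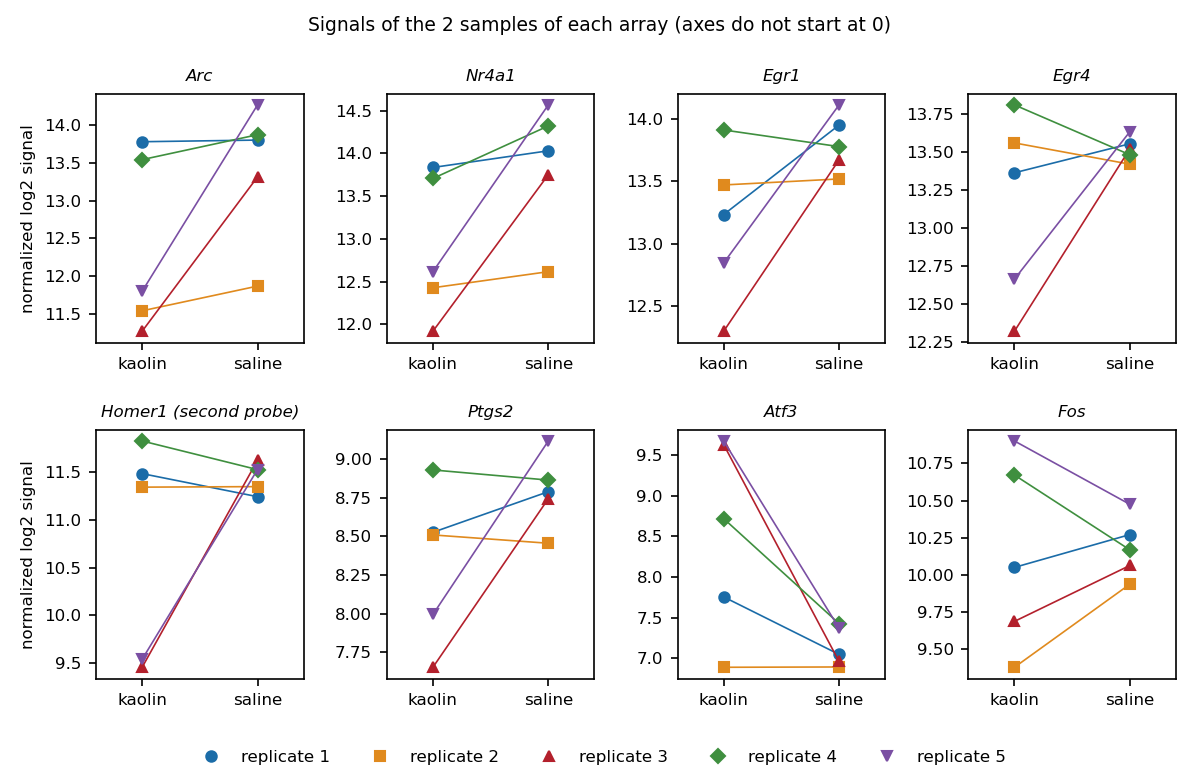
Normalized log2 signal (vertical axes, not starting at 0) in the kaolin and the saline sample of each array, joined by a line, for 7 genes by their brightest tested probe and Homer1 by its second probe. For Arc, Nr4a1, Egr1, Egr4, Homer1 and Ptgs2 the steepest lines are replicates 3 and 5, with kaolin low; for Atf3 they run the other way, and for Fos the lines cross.

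Ptgs2 (COX-2), the prostaglandin synthase that excitatory neurons make on activity, had ratios of -0.26, 0.05, -1.09, 0.07 and -1.12, with a mean of -0.47 ± 0.59 (SD, n = 5). Its kaolin samples spanned 7.65 to 8.93 and its saline samples 8.46 to 9.12 on the log2 signal scale, with replicates 3 and 5 lowest in kaolin. A second Ptgs2 probe was not well above background on any array and was not tested. Sik1, a kinase that holds CREB co-activators in the cytoplasm and so ends CRE-driven transcription, had log2 signals of 9.73, 9.76, 9.41, 9.96 and 9.45 in the kaolin samples, against 10.04, 9.60, 9.88, 10.29 and 9.81 in the saline samples. Kaolin was lower by a like amount on every array but replicate 2, and the group ranges overlap. The mean of Sik1 was -0.26 ± 0.24 (SD, n = 5; limma unadjusted p = 0.0366, Benjamini-Hochberg adjusted p = 0.256), and -0.37 without replicate 2 (limma adjusted p = 0.0465).

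Rgs2, which shortens signalling by Gq-coupled receptors, had log2 signals of 13.66, 13.26, 12.79, 13.23 and 12.78 in the kaolin samples, against 12.90, 13.28, 13.09, 12.89 and 13.16 in the saline samples. Its kaolin samples of replicates 3 and 5 were the lowest of all 10, that of replicate 1 was the highest, and the mean ratio was 0.08 ± 0.47 (SD, n = 5); without replicate 1 the mean was -0.09. Nptx2, a secreted pentraxin that clusters AMPA receptors, ran from -0.78 to 0.47 and was lowest on replicates 3 and 5. Plk2, a kinase that scales synapses down after long activity, stayed between -0.04 and 0.12.

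The MAP kinase phosphatases close the loop by removing phosphate from the kinases that induce these genes. All 4 had means below 0, and their median ratio on replicates 1 to 5 was 0.21, 0.12, -0.43, -0.12 and -0.99. Dusp6, a cytoplasmic phosphatase of ERK and the brightest of the group, had log2 signals of 12.98, 12.80, 12.37, 13.02 and 12.31 in the kaolin samples, against 12.79, 12.39, 12.63, 13.53 and 13.73 in the saline samples. Here the saline samples spread more widely than the kaolin samples, and the groups overlap. Its mean was -0.32 ± 0.71 (SD, n = 5), and -0.046 without replicate 5. Dusp1 averaged -0.36 and Dusp5, a nuclear phosphatase of ERK, -0.20, and both were lowest on replicates 5 and 3. Without replicate 5 these means were -0.18 and -0.026. Dusp4 ran from -0.22 to 0.25.

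Growth-arrest and other early response genes did not share one direction. Btg1, an antiproliferative factor, had log2 signals of 12.83, 12.77, 13.21, 12.94 and 13.51 in the kaolin samples, against 12.98, 12.76, 13.01, 13.09 and 13.03 in the saline samples. Its kaolin samples of replicates 3 and 5 were the highest of the 10, the others lay among the saline samples, and the mean was 0.08 ± 0.27 (SD, n = 5), or -0.02 without replicate 5. Btg2, its relative, averaged -0.33 with ratios from -0.90 to 0.33. Gadd45b, a stress sensor linked to activity-dependent DNA demethylation, averaged 0.26 with 0.92 and 0.85 on replicates 4 and 5. Ier3, a survival factor induced by NF-kappaB, averaged 0.30, with 0.68, 0.60 and 0.63 on replicates 3 to 5. Ier2 averaged -0.11, and Gadd45g ran from -0.48 to 0.64.

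Some of the genes varied widely from array to array. An SD over the 5 arrays of 0.5 or more was found for 14 of the 37 (37.8%), against 7.83% of all genes. A ratio of 0.5 or more below 0 was found for 5, 2, 12, 4 and 13 of the 37 genes on replicates 1 to 5. These are 13.5%, 5.41%, 32.4%, 10.8% and 35.1% of the group, against 5.16%, 1.91%, 7.54%, 4.58% and 4.2% of all genes. The low ratios thus gathered on 2 of the 5 arrays, which lie on different slides. Both lowest ratios fell on replicates 3 and 5 for 14 of the 37 genes (37.8%), against 9.88% of all genes; this pattern was picked after the values were seen. The 14 were Arc, Dusp1, Dusp5, Egr1, Egr2, Egr3, Egr4, Homer1, Nptx2, Nr4a1, Nr4a3, Ptgs2, Rgs2 and Sik1. They include all 4 Egr genes, though Egr3 was dim and fell only to -0.22, and no AP-1 gene. Both highest ratios fell there for 5 genes, Atf3, Btg1, Ier3, Jun and Jund (13.5%, against 15.5% of all genes). The kaolin samples spanned a wider range than the saline samples for 27 of the 37 genes (73%), which is close to the 72% over all genes. Among the 14 genes, 11 had an upstream sequence, and 9 of these held a CRE core, against 8 of the 16 others with a sequence and a tested probe. Full CRE and TATAAA matches were each in 1 of the 11 and 4 of the 16. CArG boxes were in 3 of the 11 and 1 of the 16, and AP-1 sites in 0 of both. A link between motifs and this pattern was not tested.

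**Figure D4:**
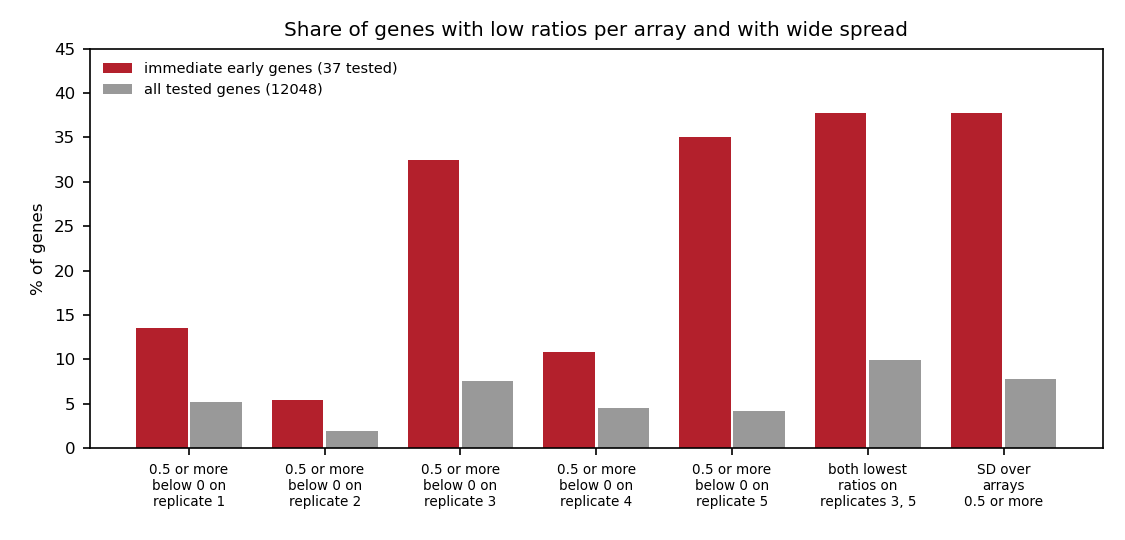
Share of genes (%, vertical axis) among 37 immediate early genes (red) and all 12048 tested genes (grey) with a log2 ratio of 0.5 or more below 0 on each array, with both lowest ratios on replicates 3 and 5, and with an SD over arrays of 0.5 or more. The red bars of replicates 3 and 5 reach 32.4% and 35.1%, against 7.54% and 4.2% for all genes.

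Genes upstream and downstream of the immediate early genes were read from the same fit. Among 23 tested upstream regulators, 15 had means below 0, against 43.5% of all genes, and 0 passed the adjusted p in limma. Ntrk2 (-0.52), the BDNF receptor TrkB, Camk4 (-0.58), a nuclear kinase of CREB, and Cacna1d (-0.51), an L-type calcium channel, had an unadjusted p under 0.05 below 0. Rps6ka1 (0.66), a kinase of SRF and CREB, Mapk3 (0.39), which is ERK1, and Creb1 (0.21) did so above 0. Over all genes, 6.6% had a limma unadjusted p under 0.05 below 0 and 12.3% above 0. The 3 of 23 regulators named above 0 are thus near the background. Late-response genes are the targets that follow in active neurons. Of 18 tested, 16 had means below 0, against 43.5% of all genes, and again 0 passed. Their median ratio was 0.06, -0.03, -0.53, 0.02 and -0.63 on replicates 1 to 5, low on the same arrays as the Egr genes. Bdnf, the activity-dependent neurotrophin, had ratios of 0.11, -0.53, -1.31, -0.09 and -0.98, with a mean of -0.56 ± 0.59 (SD, n = 5). The neuropeptides Crh (-0.48), Sst (-0.28) and Cort (-0.67), and Spry4 (-0.20), a feedback inhibitor of ERK, were named by the same rule. In limma, 4 of the 18 had an unadjusted p under 0.05 below 0, against 6.6% of all genes. Cort, made by a set of interneurons, had ratios of 0.72, -0.31, -1.80, -0.02 and -1.95.

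A second set of early response genes that answer cytokines, growth factors or stress lay on the other side of 0. Of 18 tested, 15 had means above 0, against 6808 of all 12048 genes, and 0 passed the adjusted p in limma. Cebpd, an acute-phase transcription factor, had ratios of 0.69, -0.40, 2.20, 1.96 and 2.55, with a mean of 1.40 ± 1.23 (SD, n = 5). Myc (0.56), Cebpb (0.34) and Irf1 (0.38), an interferon-response factor, also had an unadjusted p under 0.05 above 0. With Cebpd these are 4 of the 18, against 12.3% of all genes. Like Atf3, Cebpd was high on replicates 3, 4 and 5, so replicate 4 stood with replicates 3 and 5 here and with replicates 1 and 2 for Arc, Egr4 and the Homer1 second probe.

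Markers of the cell types in cortex were read on the same arrays. The neuronal list had 11 of 12 means below 0, with a median of -0.41, 0.19, -0.37, -0.25 and -0.29 on replicates 1 to 5. The mean log2 signal of its genes ran from 12.71 to 13.22 in the kaolin samples and from 12.99 to 13.25 in the saline samples. The reactive astrocyte list had 11 of 11 means above 0, with medians of 0.14, -0.06, 2.40, 2.14 and 2.55, and mean signals of 9.17 to 11.5 in kaolin and 9.01 to 9.40 in saline. The microglia and macrophage list had 10 of 10 above 0, with medians of -0.06, 0.10, 2.05, 1.50 and 1.96, and mean signals of 10.2 to 12.4 in kaolin and 10.1 to 10.4 in saline. No defining marker of these lists that was tested was below background in any sample. Both glial lists were high on replicates 3, 4 and 5. The median of the 37 immediate early genes was -0.26, 0.08 and -0.18 on these arrays. On replicate 4, 4 of the 37 lay 0.5 or more below 0, namely Btg2, Dusp6, Klf6 and Nr4a1 (10.8%, against 4.58% of all genes). The 8 meninges markers had medians of -0.42, -0.15, 0.87, -0.02 and 0.65 on replicates 1 to 5. The 3 erythroid markers had medians of -0.52, -0.73, 0.43, -0.11 and 0.25. Both lists were highest on replicates 3 and 5. Oligodendrocyte medians were 0.16, 0.11, 0.01, 0.24 and -0.63. Choroid plexus medians were -0.74, -0.81, -0.95, -0.36 and -0.04. Endothelium and pericyte medians ran from -0.11 to 0.21, and upper-layer neuron medians from -0.50 to 0.23. The part of cell type shares in the low ratios was not tested.

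**Figure D5:**
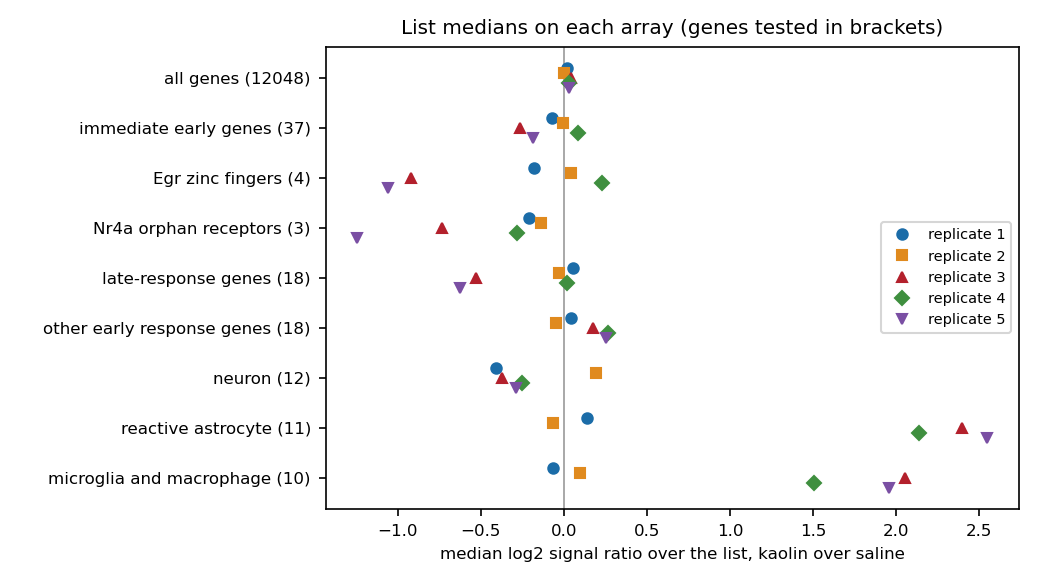
Median log2 signal ratio of kaolin over saline (horizontal axis) over each gene list (rows, number of tested genes in brackets), with 1 symbol per array. The Egr, Nr4a and late-response lists lie lowest on replicates 3 and 5, while the reactive astrocyte and microglia lists lie between 1.50 and 2.55 on replicates 3, 4 and 5.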

How the data were processed

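Total RNA of 5 kaolin (Cy3) and 5 saline (Cy5) cortex samples was read on 5 two-colour Agilent arrays; per the file headers, Agilent Feature Extraction 10.1.1.1 made the scanner tables. The deposited mean signals and local backgrounds are raw intensity values, and the deposited processed signals are intensities that the software has background-subtracted and dye-normalized. Per the file headers, its log10 column sets Cy5 over Cy3, and the spot flags are other values of 0 or 1. The authors' deposited series matrix holds log2 ratios; against the software's log10 values its 5 columns gave r from -1.00 to -0.978 over probes, so they run as Cy3 over Cy5. Column medians were 0.02, -0.05, -0.02, 0.09 and -0.10, and no source used here gives their normalization.

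Outlier spots (86 to 147 per array) were left out, and background was removed by normexp (offset 50) before loess within each array, in limma 3.58.1 under R 4.3.3. A probe was tested when well above background in either channel on at least 3 of 5 arrays, which kept 29118 of 41012. Ratios of kaolin over saline were fitted as an intercept against 0 (lmFit, eBayes, two-sided), and p-values were adjusted by Benjamini-Hochberg over those probes. Single genes also had an exact sign-flip permutation test, whose smallest p is 0.0625. The sign-flip p was 0.125 for Atf3, Jund, Klf4 and Sik1, 0.1875 for Egr1 and 0.25 for the third Nr4a3 probe. A gene is its brightest tested probe, and per-sample signals followed Aquantile normalization. The fit was tested on simulated data.

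The 39 genes and all lists were chosen with earlier results of these data known. Per-array values are given for probes with a mean of 0.5 or more in size or an unadjusted p under 0.05, and for the brightest gene of each role; pathway genes were named by the same limits. Values of Egr4, Egr2, Fos, Ptgs2 and the brightest Homer1 and Nr4a3 probes, and Bdnf, Cort and Cebpd by array, were added after they were seen. Egr3, Dusp4, Klf10, Crem, Gadd45g, Plk2 and Nptx2, whose means lay within 0.07 of 0, are given by their ranges. No gene models on rn4 were used, so exon positions are not given. Background correction, normalization, filter, arrays, slide and probe choice were varied.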

Additional observations from a re-analysis of the deposited data

Results flagged for a closer look

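In 139 sets of 5 values (the ratio, the kaolin signals and the saline signals of each tested probe, and the median ratio over the genes), 7 held a sample whose gap to the nearest other sample took over 0.71 of the whole range. Chance flags about 1 in 20 such sets, so 7 is near that number. The sets are not independent. The ratio of Klf2 on replicate 5 was -0.7297, with the other arrays from -0.1494 to -0.06399. The ratio of Sik1 on replicate 2 was 0.1585, with the other arrays from -0.4764 to -0.3094. Crem had a kaolin log2 signal of 10.47 on replicate 1, with the others from 9.928 to 10.06. Fosl2 had a kaolin signal of 6.834 on replicate 3, with the others from 7.142 to 7.248. A second Jund probe had a kaolin signal of 9.335 on replicate 2, with the others from 10.12 to 10.42. Dusp4 had a saline signal of 6.596 on replicate 2, with the others from 6.872 to 6.898. Nr4a3 had a saline signal of 10.85 on replicate 5, with the others from 10.47 to 10.54.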

How the results depend on the processing

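With 1 value per gene, the number of immediate early genes past an adjusted p of 0.05 in limma was 0 under every alternative but 2. It was 4 without replicate 2 (0 to 4 over leaving out each array) and 4 with array weights. These were Klf4 and Sik1 lower in kaolin and Atf3 and Jund higher, and the same 4 passed with array weights. Dimmer probes lie outside that count. The third Nr4a3 probe passed with array weights (-0.96, limma adjusted p = 0.0448). The second Jund probe passed with the sign of replicate 2 turned (0.61, limma adjusted p = 0.0497). Over all probes the count was 22 with median centring, 3477 with array weights, 486 with the sign of replicate 2 turned and 0 to 1512 over leaving out each array, the highest without replicate 2. The median over the 37 genes was -0.26 with median centring. Unadjusted p under 0.05 with kaolin lower held for 15 genes with median centring, 8 with the sign of replicate 2 turned, 3 with the processed signals and 3 with slide as a fixed block, and for 2 to 7 over leaving out each array. In either direction, it held for 5280 of 29118 probes as reported, 8708 with median centring and 8765 with the sign turned. With kaolin higher it held for 1 with the software log ratio, 1 with the series matrix and 1 to 4 over leaving out each array. Slide as a fixed block gave the same values as leaving out replicate 5, the only array of the second slide. Causes were not tested.

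Means that changed sign were those of Btg1 (-0.18 with median centring, -0.023 with slide as a fixed block; -0.023 to 0.14 over left-out arrays), Fos (0.10 with array weights, 0.18 with the sign of replicate 2 turned; -0.18 to 0.083), Junb (0.023 and 0.14 likewise; -0.092 to 0.065), Klf6 (0.023 over both probes; -0.22 to 0.041), its second probe (-0.0073 with median centring) and Rgs2 (-0.19 with median centring; -0.094 to 0.19). The 7 genes given by range changed sign in 24 of 126 values and passed in 0.

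Chosen after the data were seen, the counts of genes 0.5 below 0 on replicates 3 and 5, with both lowest ratios there, and with a wide spread stayed within 1.5 times under 7 other ways to make the ratios; the last was 10 to 17 over left-out arrays. Of all genes, 18.2% and 10% lay that low on replicates 3 and 5 with median centring (7.54% and 4.2% as reported), and 18.1% to 18.7% had a wide spread with the processed signals, the software log ratio and the series matrix (7.83% as reported). Named pathway genes, also added then, kept their sign in all alternatives; Cacna1d, Cebpb and Cebpd passed without replicate 2 and with array weights, Rps6ka1, Mapk3, Myc and Irf1 with array weights, and Cacna1d with the sign of replicate 2 turned. The fits and the sign-flip tests used the ratio of 1 kaolin sample to 1 saline sample within each array, so they were paired by array.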
